A study of Homo sapiens with 12 samples.

Results

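The genes described here are the chains of the CD3 complex and the kinases, adaptors and surface proteins that work with it: CD3D, CD3E, CD3G, CD247, CD7, CD2, LCK, ZAP70, LAT and FYB1. They were taken as every probe set of the array whose platform annotation names 1 of these genes alone, which gave 19 probe sets for the 10 genes, of 54613 probe sets and 19775 genes in all. CD3D and FYB1 were on the list because they had stood out between the MMS1 arrays, so the values of the listed genes in that comparison are given as a description with no test. The question was whether CD3D moved alone or together with its neighbours on the chromosome and its partners in the pathway.

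RNA of MMS1 and RPMI8226, both labelled as multiple myeloma cell lines, was measured on 12 one-colour Affymetrix arrays in 4 groups of 3. MMS1 carrying a miR-16 sponge was set against MMS1 carrying a control sponge, and RPMI8226 carrying a miR-16 sponge against RPMI8226 carrying a control sponge. Both lines in both conditions had been stably transduced with a lentivirus that also carries GFP, sorted by flow cytometry, expanded, grown for about a week in parallel and lysed together. A sponge is a transcript with binding sites that take up a microRNA, here miR-16, and the mock sponge is its control. The sponge groups are titled as miR16 KO and described as treated with an siRNA in other label fields, while the protocol names sponges, and the protocol is followed here. The sorted cells are not described as clones, and the labels do not tie the 3 arrays of a group to separate cultures, so p-values measure the spread between these arrays, which may be technical.

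The microRNA that the sponge was built to bind is shown because it defines the treatment. Its mature RefSeq sequence lies at chr13:50049027-50049048 on the minus strand of GRCh38.p14, and the capitals mark the seed, bases 2 to 8.
hsa-miR-16-5p: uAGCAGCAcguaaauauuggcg

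The T cell receptor recognises antigen but has no signalling domain of its own. The CD3 delta, epsilon, gamma and zeta chains carry the tyrosine motifs, called ITAMs, that pass the signal on. LCK phosphorylates these motifs, ZAP70 docks on them and phosphorylates the membrane adaptor LAT, and the adaptor FYB1 (also called ADAP) joins the signal to integrins and the cytoskeleton. Plasma cells, the normal counterpart of myeloma, do not use this receptor.

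The values are log2 signals. The median array value lay between 5.80 and 5.90 on all 12 arrays, and the lowest signal reported was 4.0. The MMS1 miR-16 sponge replicate 1 array stood apart in its 18S ribosomal control probe sets, with a mean of 7.84 against 9.56 to 11.1 on the other 11 arrays. The labelled cell type was checked against markers. Over the arrays, the median of 10 plasma cell genes lay between percentiles 37.5 and 51.1 of all genes, while the median of 6 erythroid genes lay between percentiles 95.6 and 97.4. Such ranks also reflect the binding strength of each probe set. Plasma cell genes differed among themselves: SDC1 (CD138) had group means of 8.66 to 9.19 and XBP1 of 8.34 to 8.68, while JCHAIN had 4.06 to 4.48 and TNFRSF17 (BCMA) 4.27 to 4.64. The rest lay lower than SDC1 and XBP1: CD38 had 4.70 to 5.17, MZB1 5.34 to 5.63 and PRDM1 5.69 to 6.31. IRF4 had 6.43 to 6.52, IGKC 6.32 to 6.60 and SLAMF7 6.77 to 7.05. Group means of the 6 erythroid genes ran from 7.39 for ALAS2 in MMS1 sponge arrays to 14.39 for HBE1 in MMS1 control arrays.

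CD3D, the delta chain of CD3, had a log2 signal of 12.58, 12.37 and 12.29 in the 3 MMS1 miR-16 sponge arrays, against 6.88, 6.78 and 6.66 in the 3 MMS1 control sponge arrays. It had 6.63, 6.75 and 6.67 in the RPMI8226 miR-16 sponge arrays, against 6.66, 6.66 and 7.01 in the RPMI8226 control sponge arrays. The MMS1 sponge arrays stood far above all 9 others, and the other 3 groups overlapped each other. The group means were 12.41 ± 0.15 in MMS1 sponge, 6.77 ± 0.11 in MMS1 control, 6.68 ± 0.06 in RPMI8226 sponge and 6.78 ± 0.20 in RPMI8226 control (SD, n = 3 each).

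The MMS1 sponge minus MMS1 control difference in CD3D was 5.64 on the log2 scale (SE 0.12), a 49.8-fold higher signal. CD3D was listed because of this comparison, so the value is a description and no interval is given. In RPMI8226 the same difference was -0.10 (SE 0.12, interval -0.36 to 0.17), with an adjusted p of 0.787 by limma with Benjamini-Hochberg adjustment over all probe sets. Between the control sponge lines, RPMI8226 minus MMS1, it was 0.01 (interval -0.26 to 0.27). CD3D is read by 1 probe set, so no other probe set checks its level. In bulk RNA a larger share of cells with CD3D cannot be told apart from more CD3D RNA per cell.

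CD3D lies on chromosome 11 between CD3E and CD3G, and its RefSeq upstream window is shown because its signal was the one that set the groups apart. The window is chr11:118342706-118342955 on the minus strand of GRCh38.p14, the 250 bases before the annotated start, with GATA or its reverse complement TATC in capitals.
CD3D: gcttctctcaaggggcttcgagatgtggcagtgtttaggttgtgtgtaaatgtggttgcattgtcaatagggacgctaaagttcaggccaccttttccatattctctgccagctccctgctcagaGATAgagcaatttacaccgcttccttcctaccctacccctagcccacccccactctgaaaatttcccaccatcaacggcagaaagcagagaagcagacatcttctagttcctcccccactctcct
This window holds 1 GATA match, counted on both strands, and 45.6% of 35116 windows of that length hold at least 1. It holds 5 matches of GGAA, the core that ETS factors bind, which occurs in 92.7% of windows, and 1 of TGTGGT, the core that RUNX factors bind, which occurs in 10.98%. It holds no match of CANNTG, found in 61.8% of windows, or of TATAAA, found in 10.7%. Each motif was counted on both strands and on its own, and a match is only a run of letters.

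**Figure D1:**
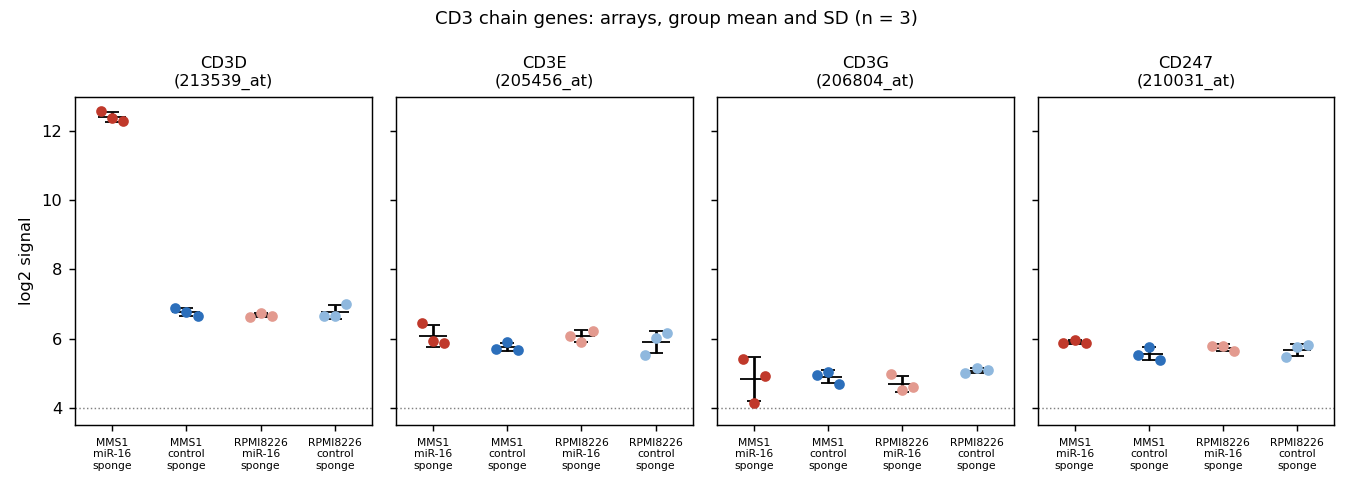
Log2 signal per array of 1 probe set per CD3 chain, with the group mean, its SD as bars and a dotted line at 4, the lowest value, for MMS1 and RPMI8226 with each miR-16 sponge group left of its control. CD3D sits between 12.29 and 12.58 in the MMS1 sponge arrays and between 6.63 and 7.01 in the other 9 arrays, while the other chains show no such step.

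The other CD3 chains did not show the step of CD3D. CD3E, the epsilon chain encoded next to CD3D, had 6.44, 5.92 and 5.87 in MMS1 sponge arrays, against 5.69, 5.89 and 5.68 in MMS1 control arrays. The groups overlapped, because the highest control array at 5.89 passed the lowest sponge array at 5.87. Its MMS1 difference was 0.32 (SE 0.18), or 0.14 without MMS1 sponge replicate 1, the array that stood apart. In RPMI8226 it had 6.08, 5.89 and 6.23 in sponge arrays, against 5.53, 6.02 and 6.15 in control arrays, which overlapped too. The RPMI8226 difference was 0.17, with a limma adjusted p of 0.735.

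CD3G, the gamma chain on the other side of CD3D, had 5.41, 4.14 and 4.93 in MMS1 sponge arrays, against 4.95, 5.05 and 4.69 in MMS1 control arrays. These arrays overlapped widely, and the difference was -0.07 (SE 0.24), or -0.36 without MMS1 sponge replicate 1. In RPMI8226 it had 4.96, 4.53 and 4.59 in sponge arrays, against 5.0, 5.14 and 5.08 in control arrays. All RPMI8226 sponge arrays were below the controls, by 0.38 on average, but the limma adjusted p was 0.528.

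CD247, the zeta chain, has 2 probe sets. The first, 210031_at, had 5.87, 5.96 and 5.88 in MMS1 sponge arrays, against 5.54, 5.76 and 5.38 in MMS1 control arrays, groups that did not overlap, with a difference of 0.35 (SE 0.12). The second, 234462_at, differed by 0.10 and its groups overlapped. In RPMI8226 the differences were 0.06 and -0.06, with limma adjusted p of 0.875 and 0.883.

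CD7, an immunoglobulin-family surface protein of T and NK cells, had in 1 of its 2 probe sets the largest MMS1 difference of the 8 genes besides CD3D and FYB1. Probe set 214551_s_at had 5.93, 6.33 and 6.21 in MMS1 sponge arrays, against 4.92, 4.36 and 5.33 in MMS1 control arrays, a 2.44-fold higher signal (log2 difference 1.28, SE 0.20). Probe set 214049_x_at, whose name marks it as one that may bind other transcripts too, differed by 0.85, with 7.03, 6.73 and 6.67 in MMS1 sponge arrays, against 6.13, 5.92 and 5.84 in MMS1 control arrays. All sponge arrays were above all control arrays for both probe sets. In RPMI8226 214551_s_at had 5.62, 5.40 and 5.63 in sponge arrays, against 5.20, 4.96 and 5.18 in control arrays. Those groups did not overlap either, by 0.44 (SE 0.20), with an unadjusted p of 0.046 and a limma adjusted p of 0.357. Probe set 214049_x_at differed by 0.13 in RPMI8226, with a limma adjusted p of 0.706.

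CD2, the T cell adhesion receptor that binds CD58, had 5.49, 5.78 and 5.56 in MMS1 sponge arrays, against 5.59, 5.30 and 5.58 in MMS1 control arrays, which overlapped. LCK, the kinase that phosphorylates ITAMs, differed between MMS1 sponge and control by 0.27 in 204890_s_at, whose groups overlapped, and by 0.26 in 204891_s_at, whose groups did not. ZAP70 differed by 0.15 in 1555613_a_at and by 0.86 (SE 0.24) in 214032_at. Only 214032_at of the ZAP70 probe sets had groups that did not overlap, with 5.48, 5.72 and 5.14 in MMS1 sponge arrays, against 4.65, 4.93 and 4.16 in MMS1 control arrays. LAT differed by 0.13 in 209881_s_at, with 5.70, 5.77 and 5.84 in MMS1 sponge arrays, against 5.54, 5.80 and 5.58 in MMS1 control arrays, and by -0.18 in 211005_at. The groups of both LAT probe sets overlapped.

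In RPMI8226 the CD2 difference was 0.06 (limma adjusted p = 0.903). The LCK differences were 0.23 and -0.17 (0.523 and 0.653), those of ZAP70 were 0.00 and 0.17 (1.0 and 0.809), and those of LAT were 0.17 and 0.08 (0.539 and 0.895). The 13 probe sets of the 8 genes besides CD3D and FYB1 had group means between 4.25 and 6.81, the highest that of CD7 214049_x_at in MMS1 sponge arrays. Their MMS1 differences ran between -0.18 and 1.28, and their RPMI8226 differences between -0.38 and 0.44. The MMS1 sponge arrays were all above the controls for 5 of these 13 probe sets, where that held for 11.6% of all probe sets. They were all below for 0, where that held for 15.2%.

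FYB1, the adaptor that joins T cell receptor signals to integrins, went the other way from CD3D in MMS1. Its brightest probe set, 211795_s_at, had 7.88, 7.86 and 8.0 in MMS1 sponge arrays, against 10.84, 10.88 and 10.95 in MMS1 control arrays. It had 7.04, 7.05 and 7.02 in RPMI8226 sponge arrays, against 7.19, 6.99 and 6.82 in RPMI8226 control arrays. The MMS1 control arrays stood above the 9 others, the MMS1 sponge arrays came next, apart from both RPMI8226 groups, and the 2 RPMI8226 groups overlapped.

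All 5 FYB1 probe sets were lower in every MMS1 sponge array than in every MMS1 control array. The log2 differences were -2.98 (SE 0.11, 7.88-fold lower) for 211795_s_at, -3.00 (SE 0.16) for 227266_s_at, -2.57 (SE 0.16) for 211794_at, -1.63 (SE 0.14) for 205285_s_at and -1.09 (SE 0.16) for 224148_at. Probe set 227266_s_at, for example, had 5.20, 4.79 and 5.39 in MMS1 sponge arrays, against 8.02, 8.19 and 8.16 in MMS1 control arrays, and 211794_at had 4.86, 4.77 and 5.05 in MMS1 sponge arrays, against 7.39, 7.43 and 7.57 in MMS1 control arrays. The drop thus appeared in dim and bright probe sets of the gene alike.

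In RPMI8226 the FYB1 differences were 0.03, -0.03, -0.45, -0.35 and -0.31 for the probe sets in that order, with limma adjusted p of 0.928, 0.961, 0.239, 0.291 and 0.401. For 211794_at and 205285_s_at every RPMI8226 sponge array was below every control array, at unadjusted p of 0.015 and 0.026 by limma. Probe set 211794_at had 4.60, 4.01 and 4.71 in RPMI8226 sponge arrays, against 4.99, 4.82 and 4.85 in RPMI8226 control arrays. These probe sets lay at group means between 4.44 and 5.35 there, near the low end of the scale.

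RPMI8226 control minus MMS1 control was -3.89, -3.17, -2.58, -1.69 and -0.88 for FYB1 in the same order. All 5 had an adjusted p under 0.05 by limma, of 19 probe sets of the listed genes, where 2.73% of all probe sets were called lower. That comparison shares its MMS1 control arrays with the one FYB1 was chosen on, and the 5 probe sets read 1 gene. The count is therefore not independent evidence. RefSeq annotates FYB1 starts with upstream windows at chr5:39270650-39270899 and chr5:39219564-39219813, both on the minus strand of GRCh38.p14, shown because FYB1 differs both between the sponge groups and between the lines; the capitals again mark GATA or TATC.
FYB1 first window: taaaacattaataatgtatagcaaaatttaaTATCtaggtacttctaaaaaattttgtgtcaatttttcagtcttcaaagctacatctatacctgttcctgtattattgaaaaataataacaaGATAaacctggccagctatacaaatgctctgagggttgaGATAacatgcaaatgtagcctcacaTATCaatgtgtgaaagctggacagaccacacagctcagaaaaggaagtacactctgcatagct
FYB1 second window: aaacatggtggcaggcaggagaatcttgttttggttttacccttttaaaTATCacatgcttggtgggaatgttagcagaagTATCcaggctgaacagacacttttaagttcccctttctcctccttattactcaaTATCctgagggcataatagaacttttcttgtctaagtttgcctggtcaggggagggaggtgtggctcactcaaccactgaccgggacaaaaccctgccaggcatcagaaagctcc
The first window holds 4 GATA matches and the second 3. At least 1 match is found in 45.6% of windows, a share that does not rate counts of 3 or 4. GGAA matched 2 times in each window, CANNTG 2 times in the first and 1 time in the second, and TATAAA 0 times in each. The TGTGGT core matched 1 time in the first and 0 times in the second window. These counts use both strands and the same letters as for CD3D.

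**Figure D2:**
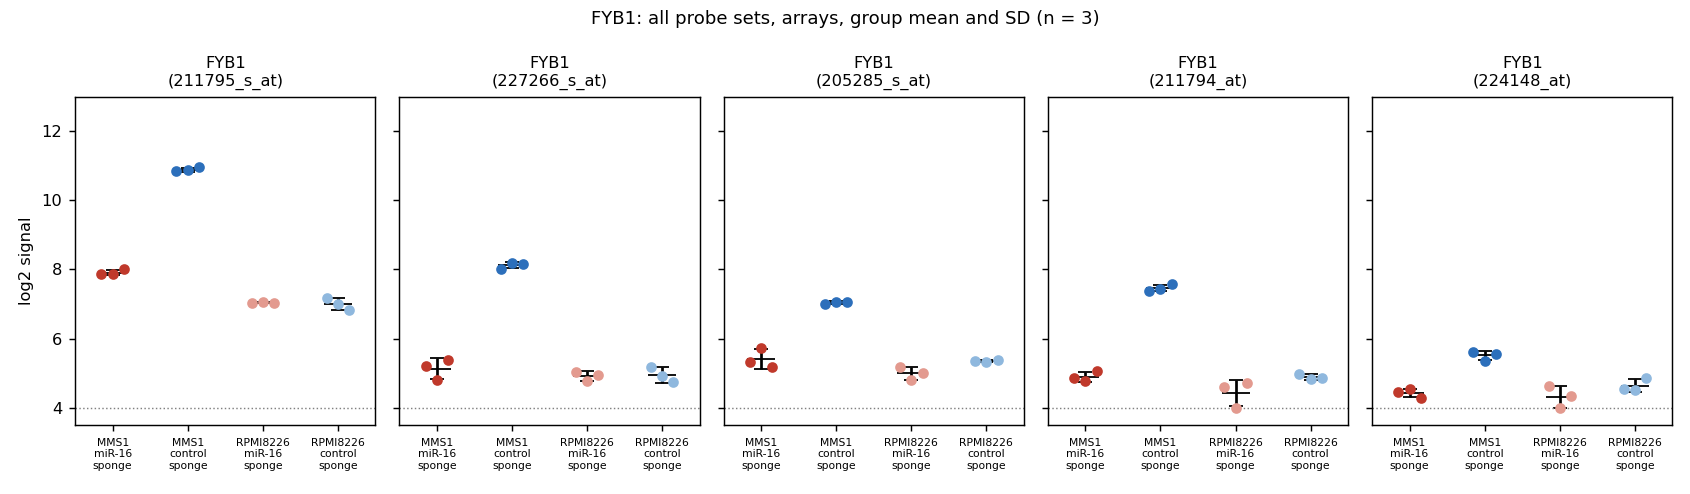
Log2 signal per array of the 5 FYB1 probe sets, by group, with the mean and SD as bars and each miR-16 sponge group left of its control. MMS1 control arrays are the highest in all 5 probe sets, and the RPMI8226 groups lie between 4.0 and 7.19.

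In MMS1, 6 of the 19 probe sets had sponge arrays all above the control arrays, where 11.6% of all probe sets did, and 5 had sponge arrays all below, where 15.2% did. Those 5 all read 1 gene, FYB1, and those 6 are CD3D, both CD7 probe sets, 1 of CD247, 1 of LCK and 1 of ZAP70. CD3D and FYB1 were listed because of this comparison, so these counts are a description and cannot show enrichment. The median difference of the 19 was 0.13, against -0.02 over all probe sets. In RPMI8226 limma called 0 of the 19, where 0.196% of all probe sets were called, with 3 at an unadjusted p under 0.05, as 13.7% of all probe sets had. The RPMI8226 groups did not overlap for 2 probe sets that were higher and 3 that were lower with the sponge, where 7.27% and 14.6% of all probe sets did so. The higher ones were CD7 214551_s_at and LCK 204890_s_at, the lower ones CD3G and FYB1 211794_at and 205285_s_at, and the median difference was 0.03.

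**Figure D3:**
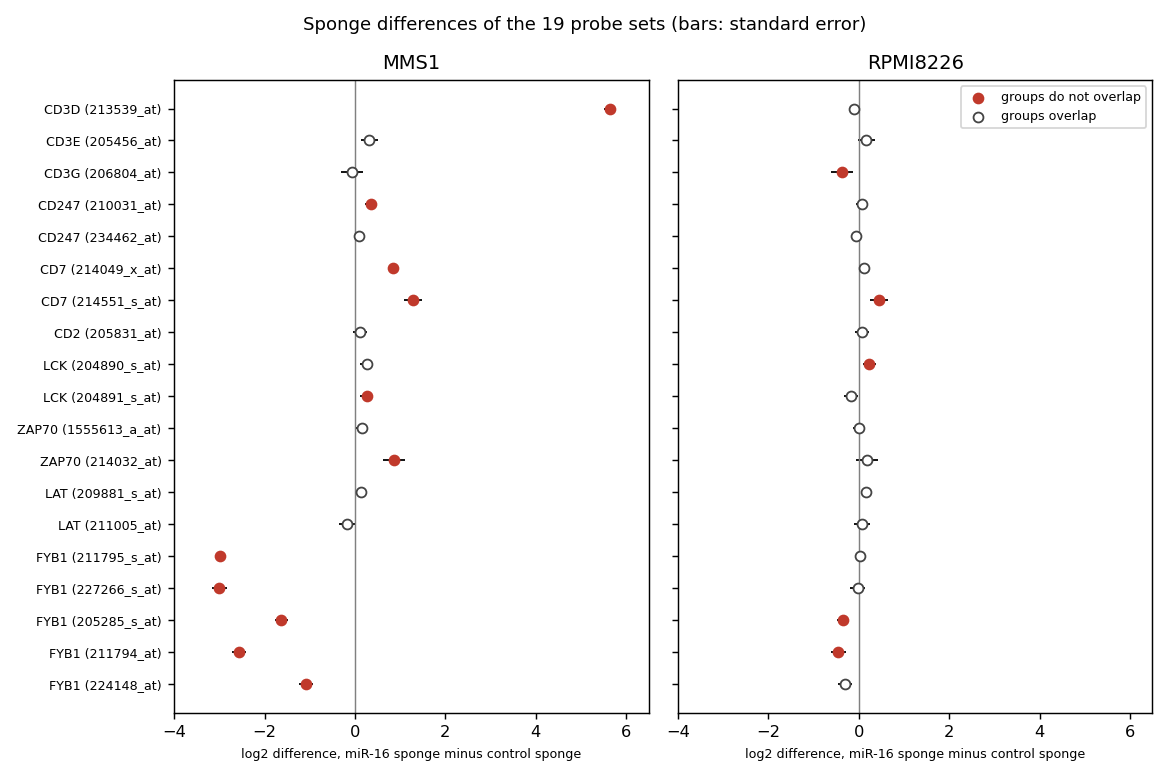
Log2 difference, miR-16 sponge minus control sponge, with its SE for the 19 probe sets of the 10 genes, in MMS1 and in RPMI8226, filled where the groups do not overlap. CD3D at 5.64 and the FYB1 probe sets at -3.00 to -1.09 stand out in MMS1, and the RPMI8226 differences lie between -0.45 and 0.44.

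The genes around CD3D did not show its step. Of the 10 nearest measured protein-coding genes on each side, 18 are not on the list, and of these 2 rose in MMS1 with the sponge and 0 fell by limma at an adjusted p under 0.05, where 4.34% of all genes rose and 8.08% fell. FXYD6, a regulator of the sodium pump, rose by 0.77 (adjusted p = 0.0449), and ARCN1, a coat protein of transport vesicles, rose by 0.44 (adjusted p = 0.0364). The median of the 18 was 0.12, against -0.04 over all genes, and their range was -0.22 to 0.77. Unadjusted, 6 had p under 0.05, as 25.6% of all genes did, and 6 had sponge arrays all above the controls, where 12.3% of genes did.

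Both calls depended on single arrays. FXYD6 missed the threshold without MMS1 control replicate 1 or 3, MMS1 sponge replicate 1 or 2, RPMI8226 control replicate 3 or any RPMI8226 sponge replicate, at limma adjusted p of 0.0528 to 0.166. ARCN1 missed it without any MMS1 control replicate, MMS1 sponge replicate 1 or 2, or RPMI8226 control replicate 2, at 0.0521 to 0.115. The nearest genes besides CD3E and CD3G gave MMS1 differences close to 0: MPZL3 differed by -0.01, MPZL2 by -0.06, UBE4A by 0.01 and ATP5MG by 0.08, with limma adjusted p of 0.970, 0.798, 0.974 and 0.701. UBE4A and ATP5MG were well expressed, at 8.91 ± 0.11 and 11.89 ± 0.09 in MMS1 sponge arrays, against 8.90 ± 0.11 and 11.81 ± 0.05 in MMS1 control arrays (SD, n = 3 each). In RPMI8226 limma called 0 of the 18, with 2 at an unadjusted p under 0.05, where 0.217% of all genes were called and 14.3% had such a p, and the median was -0.03.

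**Figure D4:**
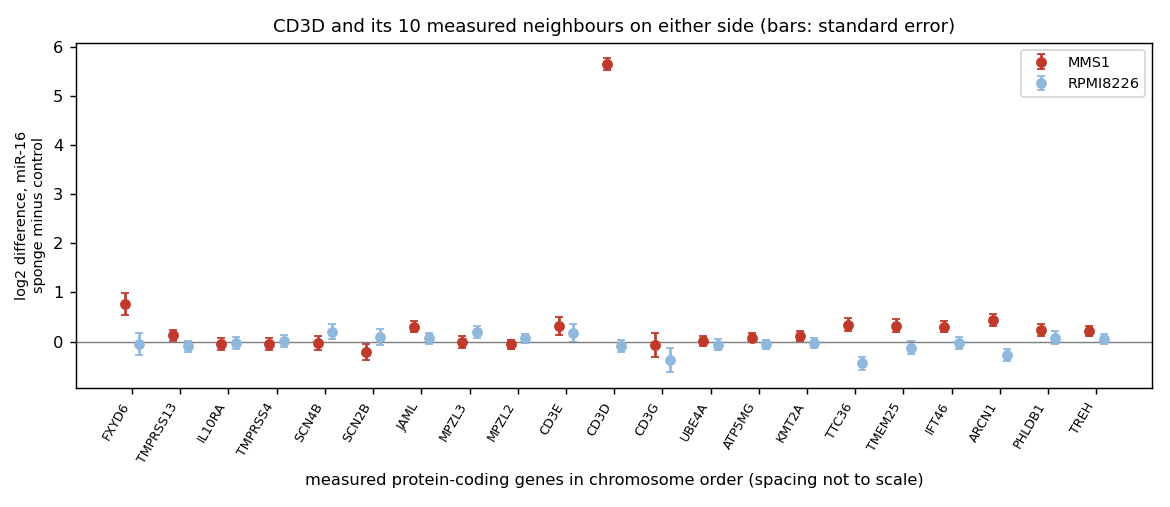
Log2 difference, miR-16 sponge minus control sponge, of CD3D and the 10 measured protein-coding genes on each side in chromosome order (spacing not to scale), in MMS1 (red) and RPMI8226 (blue), with bars for the SE. CD3D stands at 5.64 in MMS1 among neighbours off the list that lie between -0.22 and 0.77.

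Around FYB1, 10 neighbours were measured. By limma 0 rose and 2 fell in MMS1, where 4.34% of all genes rose and 8.08% fell. DAB2, an endocytic adaptor and the second measured gene on one side, had 7.36, 6.96 and 7.24 in MMS1 sponge arrays, against 8.67, 8.64 and 8.73 in MMS1 control arrays. It fell by 1.49 (limma adjusted p = 8.62e-06), and 5 of its 7 probe sets were called lower. In RPMI8226 DAB2 had 5.77, 5.79 and 6.19 in sponge arrays, against 6.67, 6.64 and 6.72 in control arrays, and it fell by 0.76 (limma adjusted p = 0.0449). That RPMI8226 call was lost without any MMS1 control replicate, MMS1 sponge replicate 3, any RPMI8226 control replicate or RPMI8226 sponge replicate 1 or 2, at 0.0545 to 0.162. The genes next to FYB1 differed little in MMS1, RICTOR by 0.07 and C9 by 0.14. OSMR, a receptor for oncostatin M, fell by 0.43 in MMS1 (limma adjusted p = 0.0362), a call lost without any MMS1 control replicate, MMS1 sponge replicate 1 or 3 or RPMI8226 control replicate 2, at 0.0525 to 0.107.

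The other genes of the pathway did not rise with CD3D as a group. Of 107 other T cell genes in 7 lists, 96 had a probe set of their own. In MMS1 limma called 4 higher and 14 lower with the sponge, where 4.34% and 8.08% of all genes were, and 32 had an unadjusted p under 0.05, as 25.6% of all genes did. Their median was -0.03, against -0.04 over all genes. In RPMI8226 it called 0, with 14 at an unadjusted p under 0.05, where 0.217% of genes were called and 14.3% had such a p, and the median was 0.01.

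Of 8 genes in the receptor chain list, 3 had a probe set of their own, and these 3 showed no step in MMS1. TRBC1 differed by 0.03, TRAT1, which stabilises the receptor at the surface, by 0.02 and PTCRA, the pre-receptor alpha chain, by 0.03. Limma called 0 of the 3, with 0 at an unadjusted p under 0.05. TRAC, TRBC2, TRDC, TRGC1 and TRGC2 were not measured alone, so TRBC1 was the only chain of the mature receptor that was read. The probe sets used for TRBC1 and PTCRA have names that mark them as ones that may bind other transcripts too. Of 18 surface proteins and coreceptors, 2 fell, where 8.08% of all genes did. IL2RG, the common cytokine receptor chain, averaged 7.32 ± 0.15 in MMS1 sponge arrays and 9.11 ± 0.18 in MMS1 control arrays (SD, n = 3 each). It fell by 1.79 (adjusted p = 1.06e-06, limma). CD58, the ligand of CD2, averaged 6.14 ± 0.11 in MMS1 sponge arrays and 7.34 ± 0.15 in MMS1 control arrays. It fell by 1.21 (adjusted p = 1.22e-05, limma), with 3 of its 5 probe sets called lower. PTPRC, the CD45 phosphatase, differed by 0.47 and CD48 by 0.37, with limma adjusted p of 0.0876 and 0.116. Leaving out RPMI8226 control replicate 1 brought PTPRC to 0.037, and leaving out RPMI8226 sponge replicate 3 brought CD48 to 0.045.

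Of 25 genes of proximal signalling, 1 rose and 3 fell in MMS1, where 4.34% and 8.08% of all genes did. LCP2, the adaptor SLP-76 that FYB1 binds, rose by 0.57 (limma adjusted p = 0.0149), with 2 of its 6 probe sets called higher. That call was lost without MMS1 control replicate 2 (0.0669) or MMS1 sponge replicate 1 (0.0502). CSK, the kinase that restrains LCK, fell by 0.57 (0.00729), FYN, a kinase of the LCK family, fell by 0.51 (0.00706) and WAS, an actin regulator, fell by 0.41 (0.0312). WAS missed the threshold without any MMS1 control replicate or MMS1 sponge replicate 1 or 2, at 0.0733 to 0.0999.

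Of 12 partners of FYB1 in adhesion signalling, 1 rose and 2 fell in MMS1, where 4.34% and 8.08% of all genes did. EVL, an actin regulator that binds FYB1, averaged 6.43 ± 0.11 in MMS1 sponge arrays and 7.72 ± 0.05 in MMS1 control arrays (SD, n = 3 each). It fell by 1.29 (limma adjusted p = 4.27e-06). RAP1A, a small GTPase that activates integrins, fell by 2.89 in 1 probe set (limma adjusted p = 2.80e-05). Of its 4 probe sets, however, 2 were called lower and 1 higher. Its close relative RAP1B rose by 0.50 (adjusted p = 0.0122). SKAP2 differed by 0.20, and TLN1, talin, by -0.31 (limma adjusted p = 0.0867, or 0.0341 without MMS1 sponge replicate 1).

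Of 16 genes of downstream signalling, 2 fell in MMS1 and 0 rose, where 8.08% and 4.34% of all genes did. SOS1, a Ras exchange factor, fell by 0.52 (limma adjusted p = 0.00334). PPP3CA, a calcineurin subunit, fell by 0.46 (0.0313), a call lost without any MMS1 control replicate or MMS1 sponge replicate 1 or 3, at 0.0529 to 0.122. NFATC2, a factor that calcineurin activates, differed by -0.67 and the calcineurin subunit PPP3CB by -0.31. Their adjusted p of 0.0588 and 0.0539 became 0.00253 and 0.0425 without MMS1 sponge replicate 1.

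Of 16 T lineage transcription factors, 1 rose and 4 fell in MMS1, where 4.34% and 8.08% of all genes did. LEF1 fell by 0.88 (limma adjusted p = 0.0016) and IKZF1 by 0.38 (0.0264), and ID3, an inhibitor of E proteins, rose by 0.50 (0.00902). ETS1 fell by 1.35 (4.86e-06) in 1 probe set while another rose, so the direction of the gene is uncertain. NOTCH1, named after its value was seen, fell by 0.54 (0.0448). IKZF1 missed the threshold without any MMS1 control replicate or MMS1 sponge replicate 2 or 3, at 0.0560 to 0.0971. NOTCH1 missed it without any MMS1 control replicate, MMS1 sponge replicate 1 or 3, RPMI8226 control replicate 2 or RPMI8226 sponge replicate 1 or 3, at 0.0511 to 0.142.

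Of 6 thymocyte genes, CD1B, a lipid-presenting protein of cortical thymocytes and dendritic cells, averaged 6.34 ± 0.11 in MMS1 sponge arrays and 4.92 ± 0.11 in MMS1 control arrays (SD, n = 3 each). It rose by 1.42 (limma adjusted p = 6.9e-06), where 4.34% of all genes rose and 8.08% fell. CD1E, of the same family, fell by 0.75 (0.049), a call lost without any MMS1 array, RPMI8226 control replicate 2 or RPMI8226 sponge replicate 1 or 2, at 0.0524 to 0.144. In RPMI8226 the smallest p-values belonged to LCP2 and to THEMIS, an adaptor of thymocyte selection. LCP2 differed by -0.57 (limma adjusted p = 0.0977) in its probe set with the highest mean. The other LCP2 probe sets were all higher with the sponge in RPMI8226, by 0.05 to 0.35, so the direction of the gene is uncertain there. THEMIS differed by 0.86 (limma adjusted p = 0.117).

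**Figure D5:**
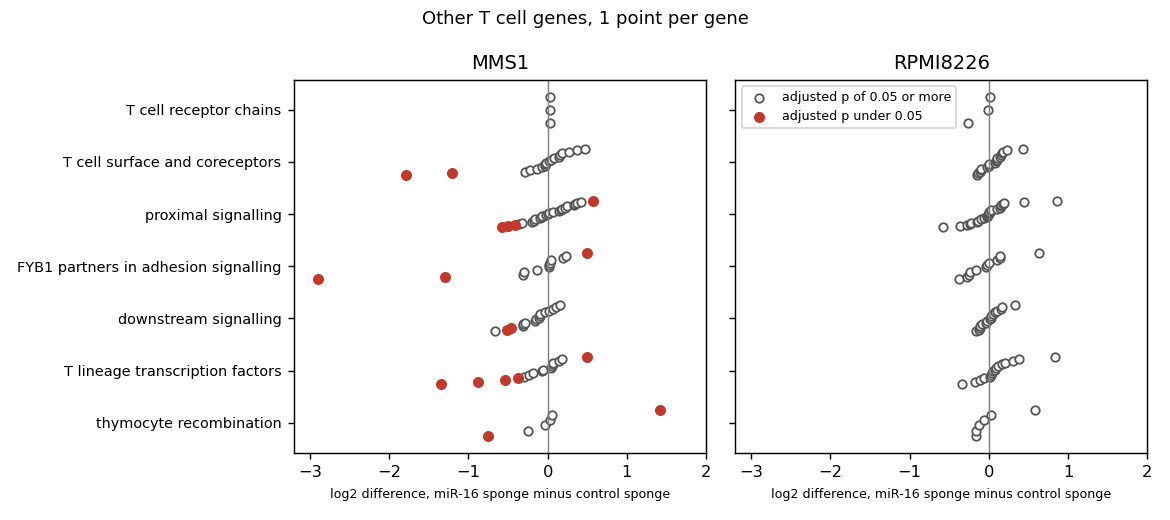
Log2 difference, miR-16 sponge minus control sponge, of 96 other T cell genes in 7 lists, 1 point per gene, with genes at a limma adjusted p under 0.05 filled in red. In MMS1 4 filled points lie above 0 and 14 below, and in RPMI8226 there are 0.

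Markers of other cell types were set beside these results. In MMS1, limma called 4.34% of all genes higher and 8.08% lower, and 25.6% had an unadjusted p under 0.05. Of 12 NK and cytotoxic genes 1 was called in MMS1, NCAM1, which rose by 0.60 (limma adjusted p = 0.0246) but missed the threshold without MMS1 control replicate 2 or 3 or MMS1 sponge replicate 1 or 3, at 0.0605 to 0.0973, and became 0.11 (0.474) with the mean of its probe sets. GZMA, a granule protease, differed by 0.65 (0.156) in MMS1 and 0.56 (0.375) in RPMI8226, and 2 of the 12 had an unadjusted p under 0.05 in MMS1. The median of the NK list lay between percentiles 29.7 and 39.3 on all arrays. Limma called 0 of 5 other ITAM adaptors and 0 of 5 megakaryocyte genes, each with 0 at an unadjusted p under 0.05, and it also called 0 of 10 plasma cell and 0 of 5 B cell genes, with 1 unadjusted in each. Of 5 myeloid genes ITGAM rose by 0.64 (0.0182), a call lost without MMS1 control replicate 2 or MMS1 sponge replicate 1, at 0.0508 to 0.0815, and with the mean of its probe sets, at 0.19 (0.223), and 2 of the 5 had an unadjusted p under 0.05. Of 6 erythroid genes HBZ, KLF1, ALAS2 and GATA1 fell and HBB rose in MMS1, where 8.08% of all genes fell and 4.34% rose. The GATA1 call was lost without MMS1 control replicate 1 or 3 or MMS1 sponge replicate 3, at 0.0557 to 0.0742. The log2 of the summed signal of the 6 erythroid genes, a sum in which the brightest genes weigh most, was 14.70 to 14.78 in MMS1 sponge arrays. It was 15.32 to 15.38 in MMS1 control arrays. In RPMI8226, HBB rose by 3.16 (limma adjusted p = 2.84e-09), against 2.91 in MMS1, and HBE1 fell by 0.49 (0.0460). The others were not called there. The log2 of the summed signal in RPMI8226 was 15.19 to 15.24 in sponge arrays, against 14.95 to 14.99 in control arrays. The part of the erythroid genes in the CD3D and FYB1 differences was not tested.

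The genes whose profile over the 12 arrays lay nearest to that of CD3D, by root mean square difference of centred log2 values, were MUC19 at 0.617, PRG2 at 0.745, CALB1 at 1.29, CSDC2 at 1.33 and SOSTDC1 at 1.38. MUC19, a gel-forming mucin, averaged 10.75 in MMS1 sponge, 6.17 in MMS1 control, 6.64 in RPMI8226 sponge and 6.44 in RPMI8226 control arrays. PRG2, the eosinophil major basic protein, averaged 9.87 in MMS1 sponge, 5.89 in MMS1 control, 5.72 in RPMI8226 sponge and 5.93 in RPMI8226 control arrays. None of these 5 is among the T cell lists. The genes nearest to FYB1 were MFNG at 0.349, RAP1A at 0.454, PLA2G2A at 0.470, SNHG24 at 0.533 and DOCK2 at 0.552. MFNG, a sugar transferase that modifies Notch, averaged 6.23 in MMS1 sponge, 10.07 in MMS1 control, 5.85 in RPMI8226 sponge and 5.90 in RPMI8226 control arrays.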

How the data were processed

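The samples were grouped by their labels into 4 groups of 3 arrays. The values are log2 signals in the deposited series table, per the file headers; per the labels' protocols the RNA went through 2 rounds of amplification and biotin labelling before hybridization. The summary method and normalization that the authors applied are not stated in any source at hand, and the table was used without further scaling. Probe sets were named from the platform annotation, where 41091 name 1 gene and 1801 several, and those naming several were not used for named genes. All 54613 probe sets, without 62 control probe sets, were fitted in 1 model over the 4 groups with limma 3.58.1 in R 4.3.3, and p-values were adjusted by Benjamini-Hochberg over all of them. A gene's value in lists and neighbourhoods is that of its probe set with the highest mean. Other tables were made in Python 3.11.15 with pandas 2.3.3 and numpy 2.4.6. The fit was tested on simulated data. Replicates were checked: 0 of the 12 pairs within groups held identical values, and their correlations were 0.974 to 0.986. Same-numbered arrays of different groups had residual correlations of -0.0748 to 0.0577, so the numbers do not pair them. The genes and lists were chosen with earlier results of these data known. Named genes were the 10 listed genes, per T cell list the 4 with the smallest p in MMS1 and 2 in RPMI8226, called or nearest neighbours, the 5 nearest profiles, and marker examples. Precision is limited by 3 arrays per group.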

Additional observations from a re-analysis of the deposited data

Results flagged for a closer look

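The sponge difference in RPMI8226 minus that in MMS1 was past an adjusted p of 0.05 in limma's interaction test for 13 of the 96 T cell genes and 3 of the 28 neighbours of CD3D and FYB1, or 13.5% and 10.7%, where 5.90% of all 19775 genes were. Of the marker genes named, NCAM1, HBZ, KLF1 and ALAS2 were past it too. Positive values mean a higher difference in RPMI8226. IL2RG gave 1.77 (adjusted p = 6.39e-05), CD58 1.11 (0.00109), EVL 1.29 (0.00021), CD1B -1.58 (0.00013) and RAP1B -0.74 (0.0171). HBZ gave 1.92 (1.66e-06), KLF1 1.70 (2.73e-05) and ALAS2 2.80 (2.55e-06). CBLB, a ubiquitin ligase that restrains T cell signalling, gave -0.69 (0.0138), which became -0.20 (0.53) with the mean of its probe sets. LCP2 gave -1.14 (0.00332), which became -0.42 (0.103) with the mean of its probe sets. RAP1A gave 3.53 (0.000232), although its probe sets disagree, and ETS1 gave 1.17 (0.000746), which became -0.085 (0.818) with the mean of its probe sets. FYN gave 0.66 (0.0213) but missed the threshold without MMS1 control replicate 3, MMS1 sponge replicate 2, RPMI8226 control replicate 2 or RPMI8226 sponge replicate 2, and with the mean of its probe sets, at 0.36 (0.0776). LEF1 gave 0.92 (0.0216), lost without MMS1 control replicate 1 or 2, RPMI8226 control replicate 1 or 2 or RPMI8226 sponge replicate 1 or 2. PPP3CA gave 0.79 (0.0206), lost without MMS1 control replicate 1 or RPMI8226 control replicate 2. CD1E gave 1.34 (0.0277), lost without MMS1 control replicate 1 or 3, MMS1 sponge replicate 1 or 2, RPMI8226 control replicate 1 or 2 or RPMI8226 sponge replicate 3, and with the mean of its probe sets, at 0.62 (0.142). ARCN1 gave -0.71 (0.0326), lost without any MMS1 control or RPMI8226 array. TTC36, another neighbour of CD3D, gave -0.79 (0.0317), lost without MMS1 control replicate 1 or 2, MMS1 sponge replicate 1 or 2, RPMI8226 control replicate 1 or 3 or RPMI8226 sponge replicate 1 or 2. DAB2 gave 0.73 (0.0391), lost without any array but MMS1 sponge replicate 1 and RPMI8226 sponge replicate 1. NCAM1 gave -0.85 (0.041), lost without any array but MMS1 sponge replicate 2 and RPMI8226 sponge replicate 3, and it became -0.014 (0.967) with the mean of its probe sets. Each call lost without an array had an adjusted p between 0.0503 and 0.102 without such an array. CBLB and TTC36 were named after their values were seen. The cause of these differences was not tested.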

How the results depend on the processing

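Between the control sponge lines, 1 of 10 genes, FYB1, was called with the mean of the probe sets of a gene, against 5 of 19 probe sets. Among the T cell genes in RPMI8226, 2 were called with only the brighter probe sets, against 0. Among the CD3D neighbours in MMS1, 0 were called with only the arrays of the compared groups and 1 with the replicate block, against 2; the cause was not tested. The replicate numbers do not pair the arrays: 3 of 12 arrays correlated best with their own number, and with the block DAB2 in RPMI8226 had an adjusted p of 0.0778. Leaving out each array in turn gave 0 to 2 called CD3D neighbours in MMS1 and 0 to 0 in RPMI8226, 5 to 5 called FYB1 probe sets between the control lines, 0 to 0 called listed probe sets in RPMI8226, 11 to 15 listed probe sets with groups apart in MMS1, and 12 to 19 called T cell genes in MMS1 and 0 to 0 in RPMI8226. Without MMS1 sponge replicate 1, the array that stood apart, 11 listed probe sets had groups apart, 18 T cell genes and 0 CD3D neighbours were called in MMS1. Groups that are apart stay apart when an array is left out. The count of listed probe sets with groups apart could therefore not fall below 11, and it does not test how stable they are. The count of FYB1 probe sets between the control lines stays tied to the MMS1 control arrays that FYB1 was chosen on. With the mean of the probe sets the MMS1 differences were 1.06 for CD7, 0.51 for ZAP70, -0.02 for LAT and -2.25 for FYB1; calls lost there were ETS1 at -0.14 (0.465), CD1E at -0.29 (0.296), OSMR at -0.16 (0.388), WAS at -0.23 (0.211), NOTCH1 at -0.31 (0.159), NCAM1 at 0.11 (0.474), ITGAM at 0.19 (0.223) and FYN at -0.25 (0.0518). Calls gained were CD48 at 0.41 (0.0103), PTPRC at 0.33 (0.0411) and NFATC2 at -0.37 (0.0128), and the ETS1 interaction turned to -0.085. Of 2241 values of single genes under these settings, 1999 kept their sign and their side of the threshold, 57 turned sign while staying uncalled, 164 lost and 16 gained a call, and 1 call turned its sign. Few arrays and signals near the lowest value limit what can be seen of dim genes.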
